A study of Mus musculus with 13 samples.

Results

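The proteasome subunit genes were followed across mouse MLL-AF10 leukemia and through treatment with A-485, a drug that blocks the histone acetyltransferases p300 and CBP. They were taken as every gene whose symbol is Psma, Psmb, Psmc, Psmd or Psme followed by a number, without the immunoproteasome genes Psmb8, Psmb9 and Psmb10, and with at least 10 counts over all libraries. This gave 39 of the 24328 genes in the files, since Psmb11, which matched as well, had no counts. They comprised 15 genes of the core, 20 of the cap and 4 activators, and all 39 entered the tests. The study held 13 libraries of total RNA with bone marrow as the source. One library came from granulocyte-monocyte progenitors labelled WT (GMP), 1 from leukemia stem cells (LSC) and 1 from mature leukemia cells (mAML). LSC treated with A-485 gave 2 libraries at each of 0, 8, 24, 48 and 72 h. The 0 h libraries were labelled untreated, so the later times had no vehicle control of their own, and no dose is named in the labels used here. The leukemia cells were grown with serum and WEHI-conditioned medium. The labels do not say that the libraries of a time came from separate cultures, so the p-values measure the spread between these libraries, which may be technical.

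The proteasome degrades proteins tagged with ubiquitin. Its core is a barrel of stacked rings: the outer rings are built of alpha subunits (Psma genes), which gate the entrance, and the inner rings of beta subunits (Psmb genes), of which Psmb5, Psmb6 and Psmb7 carry the proteolytic sites. The cap on the barrel has a base with a ring of ATPases (Psmc genes) that unfold substrates, and a lid (Psmd genes) whose Psmd14 removes ubiquitin, while Psme genes encode activators that bind the barrel in place of the cap. In many cells the subunit genes are raised together by the factor NRF1 (gene Nfe2l1) through antioxidant response elements, and some blood cancers are treated with drugs that block the Psmb5 site.

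The promoters of 5 genes are shown. Psmb6, Psma4, Psmc2 and Psmd10 were called higher at 8 h with all libraries and were picked because they hold 1 of 3 searched motifs. Psmb5 is shown because it differed between libraries of the same time. Psmc5, Psmc4, Psmd6, Psmd11 and Psmd2 were also called higher at 8 h, but their promoters hold none of the 3 motifs and are not shown. The motifs were TGACNNNGC (the core of the antioxidant response element), CCAAT (bound by NF-Y) and CACGTG (the E-box). Both strands were searched over 300 bases, from 250 before to 50 after the annotated start, and none of the matches shown overlaps another. Each sequence gives the 200 bases before the start, 5' to 3' on the gene's strand, from RefSeq on GRCm38.p6, a later build than the mm9 of the files, and capitals mark the motif matches. Psmb6 (chr11:70525157-70525356, plus strand) has TGACNNNGC from 9 bases before the start, and Psmb5 (chr14:54617996-54618195, minus strand) has it from 47 bases before. Psma4 (chr9:54950659-54950858, plus strand) has CACGTG from 140 bases before. Psmc2 (chr5:21785075-21785274, plus strand) has a CCAAT match from 28 bases before, and Psmd10 (chrX:140956712-140956911, minus strand) has CCAAT matches from 47 and from 24 bases before. The 200 bases before a second annotated start of Psmc2 (chr5:21786547-21786746, plus strand) hold no match and are not shown.
Psmb6: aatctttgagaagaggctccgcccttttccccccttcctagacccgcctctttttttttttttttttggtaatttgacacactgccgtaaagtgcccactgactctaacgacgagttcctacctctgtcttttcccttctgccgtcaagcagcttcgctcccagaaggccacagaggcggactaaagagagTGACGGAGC
Psma4: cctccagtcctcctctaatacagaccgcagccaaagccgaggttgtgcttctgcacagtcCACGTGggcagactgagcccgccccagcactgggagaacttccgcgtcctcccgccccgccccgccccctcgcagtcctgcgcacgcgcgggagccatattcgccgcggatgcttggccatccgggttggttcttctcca
Psmc2: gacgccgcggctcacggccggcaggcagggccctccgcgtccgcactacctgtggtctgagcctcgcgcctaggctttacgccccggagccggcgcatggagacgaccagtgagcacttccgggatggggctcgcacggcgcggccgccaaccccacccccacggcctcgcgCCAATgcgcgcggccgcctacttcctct
Psmd10: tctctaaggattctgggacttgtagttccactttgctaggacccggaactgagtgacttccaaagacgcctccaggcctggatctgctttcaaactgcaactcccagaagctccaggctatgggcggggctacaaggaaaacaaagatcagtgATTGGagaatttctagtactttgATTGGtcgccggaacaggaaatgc
Psmb5: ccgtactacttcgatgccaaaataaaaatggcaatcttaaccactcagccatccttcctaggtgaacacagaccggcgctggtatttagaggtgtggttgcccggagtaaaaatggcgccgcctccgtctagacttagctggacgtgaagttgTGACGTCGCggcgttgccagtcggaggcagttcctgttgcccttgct

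The promoter table matched 32 of the 39 genes, and Psma8, Psmb1, Psmb2, Psmb7, Psmc3, Psmd3 and Psmd7 were not matched. Psma6, Psmc2 and Psme2 had 2 promoters each, and a gene counted as holding a motif when any of its promoters held it. TGACNNNGC was in 6 of the 32 (18.8%), against 13.99% of all 27025 genes with a promoter of this length. Besides Psmb5 and Psmb6 these were Psmc6, Psmd12, Psmd9 and Psme4. CCAAT was in 12 of 32 (37.5%, all genes 41.1%) and CACGTG in 3 of 32 (9.38%, all genes 8.09%). Of the 9 matched genes that rose at 8 h, 1 held TGACNNNGC, 2 held CCAAT and 1 held CACGTG.

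The single libraries held 24532513 counts (GMP), 40468524 counts (LSC) and 47257637 counts (mAML), and those of the time course 6467762 to 9763278. The progenitor markers Kit, Ms4a3, Cd34, Mpo and Elane gave a sum of 31221 CPM (counts scaled to the library total only) for GMP, 18803 for LSC and 627 for mAML. In the time course they summed to 4115 and 3253 CPM at 0 h and to 141 to 642 CPM afterwards, and all 5 were called lower at every treated time. The 7 mature myeloid markers summed to 4589.5 and 3042 CPM at 0 h and to 746 and 764 CPM at 72 h. Of them 5 were called lower at 8 and at 72 h, and 3 were called lower and 1 higher at 24 and at 48 h. The 4 MLL leukemia markers summed to 282 and 363 CPM at 0 h and 730.1 and 618 CPM at 72 h, where 3 were called higher. Summed B cell markers stayed at or below 0.804 CPM and stromal markers at or below 2.05 CPM in the time course. T and NK markers summed to 74.2 and 37.7 CPM at 0 h and to at most 7.29 CPM later. The highest gene alone gave 73.6 and 37.5 CPM of the 0 h sums, and 3 and 2 of the 5 genes had no counts there. The nuclear RNA Malat1 had 266 and 272 CPM in the 0 h libraries and 2853 and 3276 CPM in those of 72 h, and the mean effective transcript length per count from 2861 and 2848 to 3530.3 and 3423 nt. The part of these shifts in the results below was not tested. In bulk samples, fewer cells of a type and less RNA per cell cannot be told apart.

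Within each library, subunit mRNA per length was highest at 8 h in the time course and in GMP among the single libraries. Summed over the 39 genes, the deposited TPM (transcript levels scaled for length and depth within a library) came to 8465 for GMP, 5877 for LSC and 6009 for mAML. The sums were 5969.5 and 6043 TPM at 0 h, 8319 and 9231 at 8 h, 6148 and 6628 at 24 h, 6285 and 6186 at 48 h and 6745 and 6369 at 72 h. Both 8 h libraries were above every other library of the course, and the libraries at 24, 48 and 72 h all lay above those at 0 h on this scale. Core genes gave 3587 and 3611 TPM at 0 h and 4808 and 5347 at 8 h. Cap genes gave 1848 and 1922 TPM at 0 h and 2918 and 3439 at 8 h. The activators gave 535 and 511 TPM at 0 h and 593 and 445 at 8 h, the only 1 of the 3 sums whose 0 h and 8 h libraries overlapped.

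**Figure D1:**
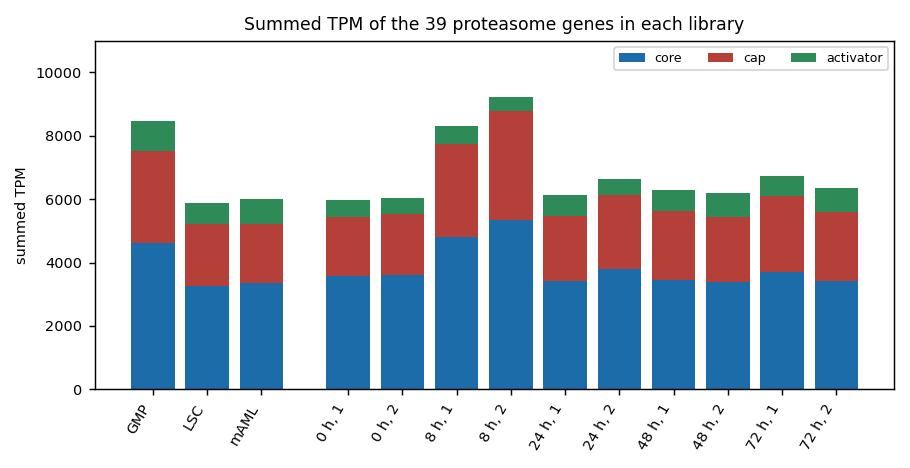
Bars give the summed TPM (vertical axis) of the 39 genes in each of the 13 libraries, split into core, cap and activator genes. The 8 h bars reach 8319 and 9231 TPM, and the other bars of the time course lie between 5969.5 and 6745 TPM.

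The TPM of the 14 core genes other than Psma8 differed from gene to gene. Psmb5, Psmb6 and Psmb7 share their places in the ring with the immunoproteasome subunits, which are not counted here. At 0 h the 14 genes ran from 122 TPM for Psmb6 to 364 TPM for Psmb5 in replicate 1 and from 125 TPM for Psmb6 to 375 TPM for Psma7 in replicate 2. In all 6 libraries at 24, 48 and 72 h Psma5 was the lowest of them, at 139 to 167 TPM, and Psmb1 the highest, at 371 to 501 TPM. Among the ATPase genes at 0 h, Psmc2 was lowest at 66.9 and 71.4 TPM and Psmc1 highest at 135 and 166 TPM. Psma8, a relative of Psma7 known from germ cells, stayed at 4.75 to 21.2 TPM in the 13 libraries, and its reads may be uncertain because of that likeness.

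Libraries of the same time differed along the chromosome that carries 5 of the 39 genes, and 3 of them stood apart. Among the 269 other genes of chromosome 14 with a mean over 20 CPM, the median log2 ratio of replicate 1 to replicate 2 was 0.65 at 8 h, 0.66 at 24 h and -0.35 at 72 h. It was 0.00 at 0 h and 0.02 at 48 h, and the medians of all other chromosomes lay between -0.07 and 0.07 at the 5 times. For the 181 genes from Psmc6 to the end of the chromosome, in RefSeq order on GRCm38.p6, the median log2 level against 0 h was -0.71 in 8 h replicate 2, -0.79 in 24 h replicate 2 and -0.54 in 72 h replicate 1. It was between -0.08 and 0.08 in the other libraries, and for the 88 genes before Psmc6 it was between 0.00 and 0.15 in all of them. The split at Psmc6 was chosen after the values were seen. The same 3 libraries had 67.1, 69.2 and 20.9 CPM of Wnt2, where the others had 0.135 to 3.58 CPM. The cause of this difference between libraries was not tested.

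Psmb5, Psmc6, Psme1 and Psme2 lie in the distal stretch, and Psmd6 lies before it. Psmb5, the chymotrypsin-like proteolytic subunit, was at 197 and 199 CPM at 0 h, 187 and 95.7 at 8 h and 119 and 69.1 at 24 h, with the CPM of single genes from here on scaled by the trimmed mean of M values (TMM). It was at 90.1 and 96.5 CPM at 48 h and 74.6 and 99.2 at 72 h. The second library of 8 h and of 24 h and the first of 72 h were the low ones. Psme1, an interferon-induced activator subunit, was at 145 and 153 CPM at 0 h, 107 and 49.9 at 8 h, 130.3 and 79.0 at 24 h, 113 and 149 at 48 h and 93.9 and 144 at 72 h, with the same low libraries. Over the 4 distal genes the log2 ratio of replicate 1 to replicate 2 was 0.39 to 1.10 at 8 h, 0.49 to 0.81 at 24 h and -0.65 to -0.34 at 72 h. Over the other 35 genes its median was -0.18, -0.23 and 0.11 at these times. Counts of the 39 genes are given with and without the 3 libraries, as are values of some named genes whose call changed. Not every changed call is given. Among those left out are calls of Psmb5, Psmc3, Psmc4, Psmc6, Psmd2, Psmd4 and Psmd11 in single comparisons. Without the 3 libraries 8, 24 and 72 h have 1 library each, assumed to vary like the others.

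**Figure D2:**
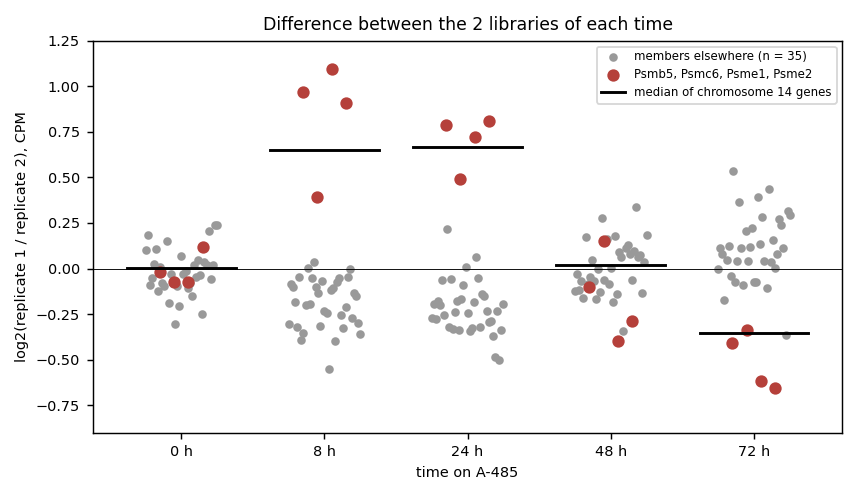
Each point is 1 of the 39 genes, and the vertical axis is the log2 ratio of its CPM in replicate 1 to replicate 2 at each time, with lines for the median of the 269 other chromosome 14 genes. The 4 distal genes lie at 0.39 to 1.10 at 8 h and 0.49 to 0.81 at 24 h, above the other 35, and at -0.65 to -0.34 at 72 h.

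At 8 h, 8 of 20 cap genes were called higher, 1 lower and 11 were not called, and in the core Psmb6 and Psma4 were called higher and Psma8 lower. The ATPase genes Psmc5, Psmc4, Psmc2 and Psmc3 were among those that rose, and the ATPase genes Psmc1 and Psmc6 were not called. Psmc5, an ATPase of the base, was at 67.7 and 69.2 CPM at 0 h and at 119 and 141 CPM at 8 h, a log2 change of 0.93 ± 0.15 (SE, adjusted p = 0.0017). Psmb6, the caspase-like proteolytic subunit, went from 84.0 and 85.9 to 149.5 and 146 CPM, a log2 change of 0.80 ± 0.11 (adjusted p = 0.00080). Psmc4, a further ATPase, went from 93.8 and 89.3 to 137 and 161 CPM, a log2 change of 0.70 ± 0.12 (adjusted p = 0.00286). For each of these 3 genes both 8 h libraries were above both 0 h libraries. Adjusted p-values here and below are from edgeR's quasi-likelihood test over 11119 genes with Benjamini-Hochberg adjustment and n = 2 libraries per time, and a gene is called at an adjusted p under 0.05.

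Of the 39 genes, 10 were called higher at 8 h than at 0 h, where 17.9% of all genes tested were, and 2 were called lower, where 21.0% were. The others called higher were Psmd6, Psmc2, Psma4, Psmd11, Psmd2, Psmc3 and Psmd10, and those called lower were Psma8 and Psmd5. The median log2 change was 0.14 over the 39 genes and 0.01 over all genes tested. By class, 4 of 6 ATPase genes (median 0.52), 1 of 3 other base genes (0.43), 2 of 8 lid genes (0.16), 1 of 8 alpha genes (-0.04) and 1 of 7 beta genes (0.25) were called higher. Psmc2 went from 90.8 and 97.1 to 129.6 and 161 CPM, a change of 0.63 ± 0.13 (adjusted p = 0.0058). Psma4 went from 109 and 113 to 152 and 173 CPM, a change of 0.55 ± 0.12 (adjusted p = 0.00618). Neither gene's groups overlapped. Without the 3 libraries 8 genes were called higher and 4 lower with a median of 0.06, where 16.9% and 21.4% of all genes were. Psmd2 and Psmd10 were then no longer called, and Psma7 and Psme1 were called lower. With library size alone 26 were called higher and 1 lower, and with TPM 27 and 1, with medians of 0.45 and 0.58 over the 39 genes and 0.33 and 0.41 over all genes. Of all genes, 36.7% were called higher and 13.7% lower with library size alone, and 43.7% and 12.2% with TPM. Leaving out 0 h replicate 1, 0 h replicate 2 or 8 h replicate 2 left fewer of the 39 genes called in each direction, and fewer of all genes too.

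The remaining ATPase genes and the other proteolytic subunits moved less at 8 h. Psmc3 rose from 154 and 178 to 217 and 227 CPM, a change of 0.42 ± 0.11 (adjusted p = 0.0183). Psmc1 had 0.06 ± 0.12 (adjusted p = 0.717) and Psmc6 had 0.02 ± 0.20 (adjusted p = 0.944), and neither passed. Psmb7, the trypsin-like subunit, was at 139 and 147 CPM at 0 h and 169 and 182 CPM at 8 h, with no overlap, and a change of 0.29 ± 0.14 (adjusted p = 0.137) did not pass. Psmb5 had -0.49 ± 0.32 (adjusted p = 0.261) with all libraries and -0.08 ± 0.11 (adjusted p = 0.61) without the 3. Psmd1 and Psmd2 form the scaffold of the base: Psmd2 rose from 339.5 and 329 to 410.0 and 489 CPM, a change of 0.43 ± 0.11 (adjusted p = 0.016), and Psmd1 had 0.55 ± 0.20 (adjusted p = 0.0597). Psmd11, a lid subunit, rose by 0.44 ± 0.12 (adjusted p = 0.0215), and Psmd6, another lid subunit, by 0.68 ± 0.17 (adjusted p = 0.0119).

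The immunoproteasome genes, which are interferon-induced replacements for the proteolytic subunits, had 2 of 3 called lower at 8 h and none called higher, and without the 3 libraries 1 was called lower. Psmb8, which replaces Psmb5, was at 296 and 320.2 CPM at 0 h and 140.1 and 118 CPM at 8 h, a change of -1.26 ± 0.15 (adjusted p = 0.00051), and -1.13 ± 0.16 (adjusted p = 0.00046) without the 3 libraries. Psmb9, which replaces Psmb6, went from 85.2 and 90.3 to 61.2 and 51.7 CPM, a change of -0.64 ± 0.21 (adjusted p = 0.0401), which without the 3 libraries was -0.52 ± 0.19 (adjusted p = 0.0562) and no longer called. Psmb10, which replaces Psmb7, had -0.62 ± 0.34 (adjusted p = 0.175) at 8 h, where its libraries lay at 50.4 and 24.2 CPM. With all libraries none of the 3 genes was called higher and 1 was called lower at each of 24, 48 and 72 h. Of all genes tested 21.0% were called lower at 8 h, and 27.1%, 30.5% and 29.4% at these later times. Psmb10 was called higher at 48 h, 0.44 ± 0.12 (adjusted p = 0.00947), and at 72 h, 0.60 ± 0.14 (adjusted p = 0.00528), without the 3 libraries. Of the summed TPM of Psmb6 and Psmb9, Psmb9 made up 59.1% and 59.98% at 0 h, 36.7% and 33.6% at 8 h, and 57.4% to 64.4% at 24, 48 and 72 h. Psmb6 itself was at 122 and 125 TPM at 0 h, 287 and 295 at 8 h and 175 and 177 at 72 h.

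**Figure D3:**
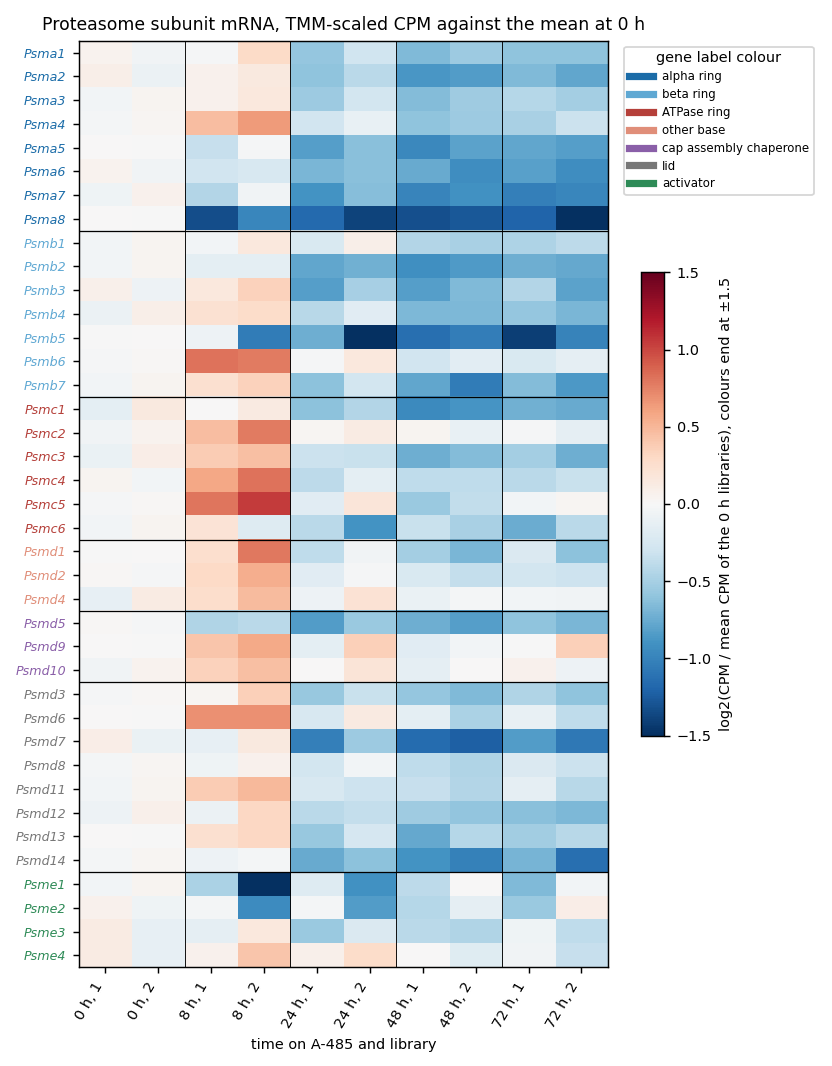
Rows are the 39 genes and columns the 10 time-course libraries, with colour for log2 of TMM-scaled CPM over the mean of the 0 h libraries. Psmb6, Psmc2, Psmc4, Psmc5 and Psmd6 are high in both 8 h columns and the alpha genes low from 24 h with this scaling (with TPM the median of the 39 genes is 0.11, 0.09 and 0.23 at 24, 48 and 72 h). Psmb5, Psme1 and Psme2 are low in 8 h replicate 2.

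With TMM scaling 20 of the 39 genes were called lower at 24 h, 27 at 48 h and 25 at 72 h, where 27.1%, 30.5% and 29.4% of all genes tested were, and the other 19, 12 and 14 were not called. The median of the 39 genes was below 0 with TMM and above 0 with TPM, and under each scaling it was below the median of all genes. Without the 3 libraries 23, 30 and 29 were called lower, where 27.7%, 34.9% and 30.3% of all genes were. None was called higher by edgeR with TMM or by DESeq2 at 24, 48 or 72 h. Of all genes 23.2%, 25.2% and 25.9% were called higher by edgeR with TMM, at an adjusted p under 0.05. Also none of the 39 was higher at an unadjusted p under 0.05 in that fit, a looser threshold than that of these shares. The medians of the 39 genes were -0.39, -0.59 and -0.47, and those of all genes -0.03, -0.04 and -0.02. With limma on log2(TPM + 1) the medians of the 39 genes were 0.11, 0.09 and 0.23, with 12, 7 and 14 genes called higher and 2, 2 and 1 lower. Of all genes 45.9%, 52.2% and 54.9% were called higher with TPM, and 14.4%, 15.7% and 14.7% lower. There the medians of all genes were 0.43, 0.56 and 0.62, so that the 39 genes lay -0.32, -0.48 and -0.38 from them, against -0.36, -0.54 and -0.45 with TMM. With each library's trend with transcript length removed the distance was smaller, at -0.16, -0.30 and -0.27, with 6, 13 and 13 called lower, where 25.2%, 27.9% and 28.3% of all genes were. With library size alone the medians of all genes were 0.28, 0.31 and 0.35, and 8, 13 and 10 of the 39 were called lower and 5, 0 and 2 higher. Of all genes 18.1%, 21.0% and 20.0% were called lower with library size alone, and 37.5%, 39.7% and 41.5% higher. Leaving out either 0 h library left fewer of the 39 genes called lower at 24, 48 and 72 h, and fewer of all genes too. The same held at 24, 48 and 72 h when either library of that time was left out.

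**Figure D4:**
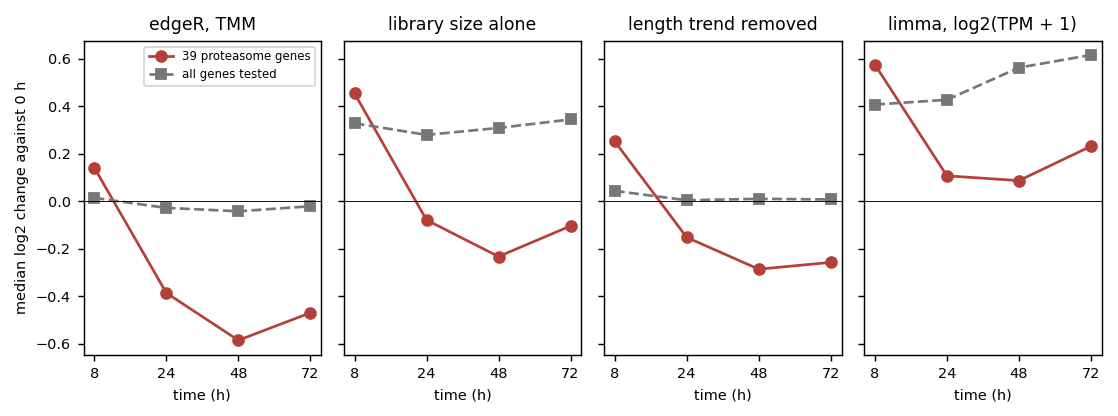
Each panel is 1 scaling, with the median log2 change against 0 h (vertical axis) of the 39 genes and of all genes tested at 8, 24, 48 and 72 h. The 39 genes lie above all genes at 8 h and below them from 24 h in each panel, while their own later medians are above 0 with TPM (0.11, 0.09 and 0.23) and below 0 with TMM.

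With TMM scaling 14 of 15 core genes (median -0.84), 13 of 20 cap genes (-0.44) and 0 of 4 activator genes (-0.23) were called lower at 48 h. Of all genes tested 30.5% were called lower at 48 h and 29.4% at 72 h, where the class counts were 14, 11 and 0. Leaving out the 3 libraries gave 14, 15 and 1 at 48 h and 13, 14 and 2 at 72 h. On the TPM scale the cap sums were higher at 48 h (2168 and 2058) and 72 h (2419 and 2165) than at 0 h (1848 and 1922). Activator sums were 535 and 511 TPM at 0 h, 664 and 756 at 48 h and 633 and 781 at 72 h. Core sums were 3587 and 3611 TPM at 0 h, 3452 and 3372 at 48 h and 3692 and 3423 at 72 h. Whether the classes differ was not tested. The 8 alpha genes were all called lower at 48 and at 72 h with TMM, of which Psma1, Psma3 and Psma4 were above 0 with TPM at both times. Psma4 was no longer called at 72 h without the 3 libraries, -0.32 ± 0.12 (adjusted p = 0.0503). Psma7 was at 212 and 232 CPM at 0 h and 109 and 112 CPM at 72 h, a change of -1.001 ± 0.15 (adjusted p = 0.00056), and at 346 and 375 against 291 and 282 TPM, lower on both scales. Psma3 was at 145 and 154 CPM at 0 h and 111 and 105 CPM at 72 h, a change of -0.47 ± 0.12 (adjusted p = 0.00901), which was 0.24 with TPM. Psma2 had -0.86 ± 0.11 (adjusted p = 0.00030) at 48 h. Psma8 had the largest fall of the 39 genes at each time, from 27.1 and 26.9 CPM untreated to 8.13 to 13.7 CPM in the treated libraries, and was called lower at 8, 24, 48 and 72 h in every setting tried.

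Among the beta genes, Psmb2 was at 129 and 138 CPM at 0 h and 70.7 and 74.1 CPM at 48 h, a change of -0.88 ± 0.10 (adjusted p = 0.00011), and its call at 24 h (-0.75 ± 0.09) held in every setting. Psmb7 went to 83.4 and 68.8 CPM at 48 h, a change of -0.91 ± 0.15, and its groups did not overlap. Psmb5 had -1.07 ± 0.33 (adjusted p = 0.0246) at 24 h, -1.08 ± 0.33 (adjusted p = 0.0211) at 48 h and -1.19 ± 0.33 (adjusted p = 0.0145) at 72 h. Without the 3 libraries these were -0.73 ± 0.12 (adjusted p = 0.00068), -1.08 ± 0.09 (adjusted p = 6.1e-06) and -0.99 ± 0.12 (adjusted p = 7.8e-05), so that the falls were called with and without them. Psmb6 was not called at the later times, with 0.07 ± 0.11, -0.22 ± 0.11 and -0.18 ± 0.11, and its libraries at 72 h, 72.6 and 77.4 CPM, were below those at 0 h, while with TPM (175 and 177) they were above.

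In the lid, Psmd7, the partner of Psmd14, was at 165 and 143 CPM at 0 h and 69.1 and 66.0 CPM at 48 h, a change of -1.19 ± 0.18 (adjusted p = 0.00066) that was called in every setting. Psmd14, the deubiquitinase, was at 123 and 127 CPM at 0 h and 67.2 and 62.1 CPM at 48 h, a change of -0.96 ± 0.15 (adjusted p = 0.00073). All libraries of both genes at 24, 48 and 72 h were below both at 0 h. Psmd12 had -0.57 ± 0.14 (adjusted p = 0.00938) at 48 h with TMM and 0.11 with TPM, and Psmd11 had -0.39 ± 0.12 (adjusted p = 0.0246) with TMM and 0.28 with TPM. In the base, Psmd1 had -0.60 ± 0.20 (adjusted p = 0.0341) at 48 h with TMM and 0.08 with TPM, and without the 3 libraries it was called lower at 24 and 72 h as well, -0.38 ± 0.12 (adjusted p = 0.0238) and -0.61 ± 0.12 (adjusted p = 0.00184). Psmd2 had -0.30 ± 0.11 (adjusted p = 0.049) at 72 h with TMM and was called higher with TPM, at 0.42. Psmd4, a ubiquitin receptor of the base, was at 112 and 134 CPM at 0 h and at 115 to 119.8 CPM at 48 and 72 h, within the range of its 0 h libraries. Its TPM were higher at these times, at 195 to 206 against 117 and 139 at 0 h.

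The ATPase genes differed in their later values. Psmc1 stood at 148 and 182 CPM untreated and 84.9 and 88.6 CPM after 48 h, a change of -0.93 ± 0.12 (adjusted p = 0.00036). Psmc3 had -0.69 ± 0.11 (adjusted p = 0.00104) at 48 h, and -0.62 ± 0.11 at 72 h with TMM against 0.08 with TPM. Psmc2 had -0.03 ± 0.13 at 48 h and -0.07 ± 0.13 at 72 h with TMM, and was not called at either. Its TPM were 66.9 and 71.4 at 0 h, 115.9 and 100.8 at 48 h and 114.5 and 100.4 at 72 h. Psmc5 had -0.46 ± 0.15 (adjusted p = 0.0266) at 48 h with TMM and 0.21 with TPM, and was at 66.5 and 70.0 CPM at 72 h, beside its 0 h values. Its TPM were higher at 72 h, at 122.4 and 122.4 against 74.9 and 76.4 at 0 h. Psmc4 had -0.37 ± 0.12 (adjusted p = 0.0312) at 72 h with TMM and was called higher with TPM, at 0.33. Psmc6 was called lower at 24 h (-0.62 ± 0.20) and 72 h (-0.56 ± 0.20, but 0.13 with TPM), and without the 3 libraries had -0.40 ± 0.13 (adjusted p = 0.0323) and -0.40 ± 0.13 (adjusted p = 0.028).

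The cap chaperones, which help to assemble the base and leave the finished particle, had unlike courses. Psmd5 was at 118 and 115 CPM at 0 h and at 65.3 to 88.1 CPM in the treated libraries, with -0.43 ± 0.12 (adjusted p = 0.0209) at 8 h and -0.78 ± 0.12 (adjusted p = 0.00075) at 48 h. With TPM its change was 0.02 at 8 h and 0.07 at 72 h. Psmd10, also called gankyrin, was at 36.1 and 38.9 CPM at 0 h, 47.4 and 51.4 CPM at 8 h, a change of 0.40 ± 0.14 (adjusted p = 0.0454), and 34.1 to 42.7 CPM later. Its TPM were 34.2 and 36.5 at 0 h and 51.0 to 61.4 from 24 h on. Psmd9 was at 29.4 and 29.0 CPM at 0 h and 39.02 and 43.3 CPM at 8 h, and its change of 0.50 ± 0.20 (adjusted p = 0.0771) did not pass.

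None of the 4 activator genes was called by edgeR in any of the 5 comparisons with all libraries. At an unadjusted p under 0.05 there was 1 at 8, at 24 and at 48 h and 1 at 72 against 8 h, and DESeq2 called 1 at 8 h and 1 at 72 against 8 h. Psme3, the nuclear activator, was at 196 and 165 CPM at 0 h and 135 and 132 CPM at 48 h, a change of -0.43 ± 0.17 (adjusted p = 0.0532). Without the 3 libraries Psme3 was called lower at 24 h, -0.56 ± 0.13 (adjusted p = 0.00558), at 48 h, -0.43 ± 0.11 (adjusted p = 0.00509), and at 72 h, -0.39 ± 0.13 (adjusted p = 0.0282). Psme4, an activator known to bind acetylated histones, was at 289.6 and 245 CPM at 0 h and 256 and 209 CPM at 72 h, with -0.35 ± 0.14 (adjusted p = 0.0483) without the 3 libraries and -0.20 ± 0.16 (adjusted p = 0.315) with all. Psme1 had -0.93 ± 0.37 (adjusted p = 0.0774) at 8 h, and -0.48 ± 0.16 (adjusted p = 0.0405) without the 3 libraries. Psme2 was at 91.1 and 83.8 CPM at 0 h and 85.6 and 45.5 CPM at 8 h, and its reads may be shared with the similar Psme2b.

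From 8 to 72 h the median of the subunit genes was below 0 with every scaling, and none of the calls changed direction. Of the 39 genes, 28 were called lower at 72 h than at 8 h, where 17.2% of all genes tested were. With all libraries none was called higher by edgeR with TMM or by DESeq2, where 15.1% of all genes were by edgeR at an adjusted p under 0.05. Also none of the 39 was higher at the looser threshold of an unadjusted p under 0.05. The median was -0.72 over the 39 genes and -0.02 over all genes. With TPM 24 were called lower with a median of -0.45, with library size alone 27 with a median of -0.67, and without the 3 libraries 28 with a median of -0.63. Of all genes 11.2%, 15.6% and 16.6% were called lower in these 3 settings. Psmc4 went from 137 and 161 CPM to 68.9 and 72.5 CPM, a change of -1.07 ± 0.12 (adjusted p = 0.00045). Psmb7 went from 169 and 182 CPM to 90.7 and 78.7 CPM, a change of -1.05 ± 0.15 (adjusted p = 0.00115). Psmc3 went from 217 and 227 CPM to 116 and 99.8 CPM, a change of -1.04 ± 0.11 (adjusted p = 0.00034). The groups of these 3 genes did not overlap. Among the 28 were 9 of the 10 genes called higher at 8 h, but both comparisons use the 8 h libraries, and 20 of the 28 were called in every setting tried.

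**Figure D5:**
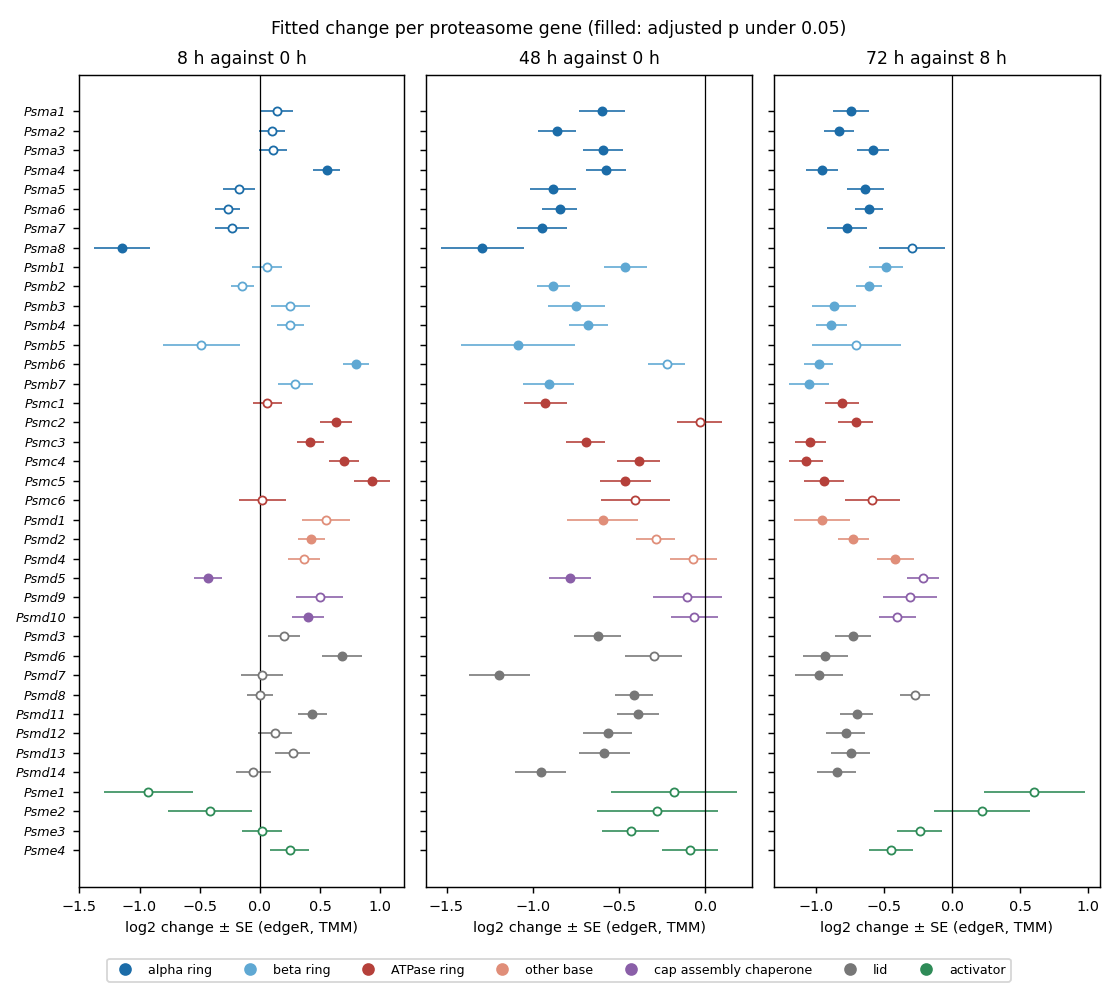
Points are the fitted log2 change (TMM scaling) of each of the 39 genes with its SE for 8 h against 0 h, 48 h against 0 h and 72 h against 8 h, coloured by class and filled where called. At 8 h 10 are filled above 0 and 2 below, at 48 h 27 are filled below 0 (where the median with TPM is 0.09), and at 72 h against 8 h 28 are filled below 0.

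Over the 4 treated times together 32 of the 39 genes were called, where 59.8% of all genes tested were. They were the 15 core genes and 17 of the 20 cap genes. The smallest adjusted p-values were 0.00021 for Psmb2, 0.00025 for Psmc3 and 0.00029 for Psmb6. With TMM scaling 19 genes were called lower at each of 24, 48 and 72 h, where 23.4% of all genes were, and 23 were without the 3 libraries, where 24.1% were. At 8 h higher and at a later time lower were 6 genes, where 0.737% of all genes were, and 5 without the 3 libraries, where 1.10% were. With all libraries the 6 genes were Psma4, Psmc3, Psmc4, Psmc5, Psmd2 and Psmd11, and their later falls were read with TMM. With TPM the changes at the times of these falls were above 0, except for Psmc3 at 48 h. With all libraries, Psmd9 and the 4 activator genes were called in none of the 5 comparisons, as were 27.2% of all genes.

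Genes around the proteasome were read with TMM scaling, and of their 107 calls 9 had the opposite sign with TPM. With all libraries the shares of all genes called higher and lower were 17.9% and 21.0% at 8 h, 25.2% and 30.5% at 48 h and 25.9% and 29.4% at 72 h. Of 5 core assembly chaperones tested, 3 were called lower at 8 h and 4 at each of 24, 48 and 72 h, and without the 3 libraries 3 at 24 h and otherwise as many. Psmg1, which helps to build the alpha ring, was at 42.6 and 49.0 CPM at 0 h, 28.7 and 22.8 at 8 h and 10.97 and 11.6 at 48 h, a change of -2.02 ± 0.20 (adjusted p = 7.7e-05) at 48 h. Pomp, which guides beta ring assembly, was at 115 and 122 CPM at 0 h, 82.6 and 82.9 at 8 h and 50.9 and 58.3 at 48 h, a change of -1.11 ± 0.12 (adjusted p = 0.00013). Both were lower in every treated library than at 0 h and were below 0 with TPM as well. Of 7 further subunits and bound factors, 1 was called higher and 1 lower at 8 h, and 1 and 3 at 48 h. Uchl5, a deubiquitinase bound to the cap, was at 75.4 and 67.8 CPM at 0 h, 54.9 and 59.98 at 8 h and 16.4 and 16.5 at 48 h, a change of -2.12 ± 0.19 (adjusted p = 4.4e-05). Shfm1, a small lid subunit, had -0.98 ± 0.15 (adjusted p = 0.00065) at 48 h.

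Of 11 genes of the transcriptional control of subunits, 3 were called higher and 3 lower at 8 h, and 4 and 3 at 48 and at 72 h, shares not far from those of all genes. Leaving out the 3 libraries gave 2 and 2, 6 and 3, and 4 and 3. Mafg, a small Maf partner of NRF1 and NRF2, was at 45.5 and 52.6 CPM at 0 h and 18.5 and 20.9 CPM at 8 h, a change of -1.31 ± 0.15 (adjusted p = 0.00033), and -1.40 ± 0.20 (adjusted p = 0.00047) without the 3 libraries. Maff, another partner, went from 23.8 and 28.8 to 9.32 and 3.02 CPM, a change of -2.09 ± 0.45 (adjusted p = 0.00696). Nfe2l2, which encodes NRF2, had -0.56 ± 0.16 (adjusted p = 0.0218) at 8 h, which without the 3 libraries was -0.39 ± 0.15 (adjusted p = 0.0592) and not called, and 0.41 ± 0.16 (adjusted p = 0.0485) at 48 h. Nfe2l1, which encodes NRF1 and was named for its role rather than by the rule for named genes, was at 187 and 209 CPM at 0 h and 176 and 216 CPM at 8 h, with overlapping groups and a change of -0.02 ± 0.16 (adjusted p = 0.935). Of 7 antioxidant response genes 1 was called higher and 1 lower at 8 h, and 1 and 2 at 72 h. Hmox1, heme oxygenase, went from 98.2 and 123 CPM untreated to 437 and 341 CPM by 72 h, a change of 1.82 ± 0.28 (adjusted p = 0.00073), and Nqo1, a quinone reductase, from 24.5 and 16.9 to 8.26 and 4.07 CPM.

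Of 6 genes that supply or activate ubiquitin, 3 were called higher and 2 lower at 8 h. Uba6, an activating enzyme, went from 31.4 and 28.1 to 65.9 and 76.0 CPM, a change of 1.253 ± 0.19 (adjusted p = 0.00143), and 1.15 ± 0.16 (adjusted p = 0.00040) without the 3 libraries. Rps27a, which encodes ubiquitin fused to a ribosomal protein, went from 1401 and 1477 to 992 and 790.4 CPM, a change of -0.69 ± 0.15 (adjusted p = 0.00838). Of 8 shuttle and segregase genes 3 were called higher at 8 h, and 1 without the 3 libraries. Vcp, the segregase that extracts ubiquitin-tagged proteins, went from 640.2 and 685 to 779 and 1039 CPM at 8 h, a change of 0.46 ± 0.14 (adjusted p = 0.0308), which without the 3 libraries was 0.24 ± 0.12 (adjusted p = 0.135) and no longer called. Rad23b, a shuttle that carries tagged proteins to the cap, had -0.75 ± 0.15 (adjusted p = 0.00265) at 48 h, and was called lower at 72 h with TMM but had 0.05 with TPM.

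The median subunit gene was lower in LSC than in GMP relative to other genes, in 1 library each and so with no replicate check and no test. Each value is the log2 ratio of the TMM-scaled levels after a prior count of 5, and brackets hold exact binomial 95% intervals, which cover counting error only. The median ratio of LSC to GMP was -0.31 over the 39 genes and 0.01 over the 9021 genes that reached 10 CPM in 1 of the pair. At least 1.5-fold lower in LSC were 9 genes, where 18.0% of all genes were, and 1 was at least 1.5-fold higher, where 20.7% were. Psmd7 was at 98.5 and 199.6 TPM in LSC and GMP (-0.80 [-0.87, -0.74]), Psma3 at 131 and 246 TPM (-0.70 [-0.75, -0.64]) and Psme4 at 17.8 and 33.5 TPM (-0.69 [-0.76, -0.62]). Psma8 was the gene higher in LSC, at 15.7 and 4.75 TPM (1.91 [1.66, 2.24]). The intervals of 30 genes lay below 0 and of 4 above. Such intervals narrow with depth, and they were not counted over all genes. With log2(TPM + 1) the median was -0.52 over the 39 genes and -0.20 over all genes, and 17 were at least 1.5-fold lower, where 26.3% of all genes were.

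Against the median of -0.31 over the 39 genes, the proteolytic subunits Psmb7 and Psmb5 had similar ratios of LSC to GMP. Of these subunits Psmb6 differed least. Psmb6 was at 188 and 225 TPM in LSC and GMP (-0.05 [-0.12, 0.01]), Psmb7 at 203 and 292 TPM (-0.33 [-0.39, -0.26]) and Psmb5 at 203 and 281 TPM (-0.27 [-0.34, -0.20]). Among the ATPase genes Psmc5 had the lowest ratio, -0.59 [-0.66, -0.52], and Psmc2 the highest, 0.01 [-0.05, 0.08]. Psmd4 (0.21 [0.14, 0.28]), Psmd9 (0.17 [0.03, 0.31]) and Psmd10 (0.27 [0.13, 0.41]) were above GMP on this scale. Distal chromosome 14 genes had a median ratio of -0.05.

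mAML and LSC had similar subunit medians, with single genes apart. The median log2 ratio of mAML to LSC was 0.01 over the 39 genes and -0.04 over 9131 genes. At least 1.5-fold higher in mAML were 2 genes, where 19.9% of all genes were, and 1 was at least 1.5-fold lower, where 16.0% were. Psma7 was at 453 and 281 TPM in mAML and LSC (0.77 [0.73, 0.82]) and Psmd8, a lid subunit, at 192 and 127 TPM (0.67 [0.62, 0.72]). Psma8 was the lower one, at 7.77 and 15.7 TPM (-0.93 [-1.12, -0.76]). The activators Psme1 (0.24 [0.19, 0.28]), Psme2 (0.57 [0.52, 0.62]) and Psme4 (0.52 [0.45, 0.58]) had ratios above 0, and Psme3 (-0.25 [-0.30, -0.20]) below. Erythroid markers summed to 999 CPM in mAML and 2.72 in LSC, and mature myeloid markers to 29355 and 6794 CPM, with counts scaled to the library total only. Their part in these ratios was not tested. Of mAML to GMP the median ratio was -0.32 over 38 genes and 0.00 over all genes.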

How the data were processed

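Gene expression was measured by RNA-seq in 13 libraries, 3 single ones and 10 of the A-485 time course. The authors aligned with STAR and quantified with RSEM against mm9, per the submitters' processing notes, whose versions are not given in the sources used here. Deposited files hold, per the file headers, the expected count of each gene (RSEM's estimate, not always whole) and TPM per library. Rounding to whole numbers preceded the count test. The time course was fitted with edgeR 4.0.16 in R 4.3.3 (TMM scaling, filterByExpr, time as a factor, quasi-likelihood test), and Benjamini-Hochberg adjustment ran over 11119 genes. The test was checked on simulated data. Replicates differed beyond sampling noise and were counted separately. Single libraries were compared by ratio only. Alternatives were library size alone, DESeq2 1.42.0, no filter on low counts, limma 3.58.1 on log2(TPM + 1), removal of each library's trend with transcript length, a replicate block, and leaving out each library. Leaving out the 3 libraries low in distal chromosome 14 genes was chosen after seeing the data. Named were the proteolytic subunits, Psma3, Psma7, all Psmc and Psme genes, Psmd1, Psmd2, Psmd4, Psmd11, Psmd12, Psmd14, the cap chaperones, in each class the 2 genes with the smallest adjusted p over the treated times together, the 3 largest called rises and falls at each time, and up to 3 genes per list or single-library direction. Others were named after their values were seen, and a few list genes are not reported here. The members and lists were chosen with earlier results of these data known. Counting by strand is not stated, so overlapping genes cannot be told apart.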

Additional observations from a re-analysis of the deposited data

How the results depend on the processing

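With each library left out in turn, the genes called higher at 8 h numbered 6 to 12 and lower 1 to 3 (median 0.062 to 0.30), those called lower 8 to 19 at 24 h (median -0.41 to -0.30), 18 to 29 at 48 h (-0.58 to -0.49) and 16 to 25 at 72 h (-0.51 to -0.44), and at 72 against 8 h 25 to 30 lower and 0 to 1 higher (-0.86 to -0.59). Over the treated times together 28 to 34 were called. Of 1120 gene values under these, 971 kept the call, 149 lost it and 0 changed sign. Among all genes too, fewer were called in each comparison when 1 of its own libraries was left out. DESeq2 and no filter on low counts moved no count by over 1.5 times. At 8 h, library size alone gave 26 higher and 1 lower (median 0.45), TPM 27 and 1 (0.58) and removal of the length trend a median of 0.25. At 24 h, library size alone gave 5 higher and 8 lower (-0.079), TPM 12 and 2 (0.11) and the length trend 1 and 6 (-0.15). At 48 h the lower counts were 13 (-0.23), 2 (0.087) and 13 (-0.29), with 7 higher for TPM and 1 for the length trend. At 72 h they were 10 (-0.10), 1 (0.23) and 13 (-0.26), with 2 higher for library size alone and 14 for TPM. At 72 against 8 h the medians were -0.45 with TPM, -0.53 with the length trend removed and -0.63 without the 3 libraries, which at 8 h gave 4 lower. The replicate numbers are not said to pair the libraries. Between times, deviations of same-numbered libraries from their time means correlated with r from -0.41 to 0.64, over 0.1 in 3 of 10 pairs of times. The r was 0.64 for 8 with 24 h, -0.40 for 8 with 72 h and -0.41 for 24 with 72 h. The replicate block gave 10 higher and 2 lower at 8 h and 18, 27, 24 and 28 lower in the other comparisons. The replicate block with the length trend removed gave 1 lower at 8 h (0.25), 2 higher and 7 lower at 24 h (-0.16), 1 and 13 at 48 h (-0.29), 13 lower at 72 h (-0.26) and a median of -0.53 at 72 against 8 h. Between single libraries, 15 genes with library size alone and 17 with TPM + 1 lay 1.5-fold or more below GMP in LSC, 1 with library size alone was higher in mAML than in LSC, and 2 with either were lower. Genes called lower with TMM had positive changes with TPM: at 8 h Psmd5 0.016; at 24 h Psma1 0.076, Psma2 0.0094, Psma3 0.11, Psmb7 0.063, Psmc3 0.19, Psmd12 0.13, Psmd13 0.10, Psmd3 0.067; at 48 h Psma1 0.080, Psma3 0.087, Psma4 0.11, Psmb1 0.22, Psmb4 0.0094, Psmc4 0.29, Psmc5 0.21, Psmd1 0.076, Psmd11 0.28, Psmd12 0.11, Psmd13 0.084, Psmd3 0.052, Psmd8 0.26; at 72 h Psma1 0.10, Psma3 0.24, Psma4 0.29, Psmb1 0.26, Psmb3 0.051, Psmb4 0.058, Psmc3 0.085, Psmc4 0.33, Psmc6 0.13, Psmd12 0.053, Psmd13 0.23, Psmd2 0.42, Psmd3 0.18, Psmd5 0.066. Psmd2 at 72 h had 0.070 with library size alone, and Psmb1 at 48 h had 0.033 with the length trend removed and 0.036 with the block as well. The cause of these changes was not tested. Depth sets counting error only, and 2 libraries per time limit every test.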
